A study of Homo sapiens with 6 samples.

Results

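RNA of genes of the bone morphogenetic protein (BMP) branch of TGF-β signaling was followed in SUM159 cells with and without knockdown of TβRIII. These were the genes for its SMAD proteins and inhibitors, together with the ID genes that this branch switches on. The members were SMAD1, SMAD5, SMAD9, SMAD6, SMAD7, BAMBI, ID1, ID2, ID3 and ID4, which are 10 of the 18276 genes measured. They were chosen by gene symbol, and of several transcript clusters (groups of probes for 1 gene or transcript) the one with the highest mean signal over the 6 arrays was to be selected. Each member had 1 transcript cluster of its own, so the mean signal decided nothing in this step, while the genes themselves were proposed with fold changes of these arrays known.

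SUM159 is an established human triple negative breast cancer cell line of mesenchymal character. The control cells and the TβRIII-KD cells, which carry a stable knockdown of TGFBR3 by an shRNA delivered with a lentivirus and kept under puromycin selection, were both grown in three-dimensional matrigel culture and taken at day 6, with no added treatment named in the labels. RNA of 3 samples per group was hybridized to Affymetrix Human Gene arrays, and every value below is a log2 signal (RMA) or a difference of log2 signals, TβRIII-KD over control, fitted with limma. The labels do not say whether the 3 samples of a group were separate cultures. A p-value here reflects no more than the scatter of these 6 samples, and that scatter may be technical. Each group is 1 cell population, so the loss of TβRIII cannot be told apart from any other way in which the populations differ. In RNA from whole cultures, fewer cells expressing a gene and less of its RNA per cell also cannot be told apart.

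BMPs bind serine/threonine kinase receptors that phosphorylate the receptor-regulated SMADs of their branch, SMAD1, SMAD5 and SMAD9 (also known as SMAD8). These join SMAD4, the SMAD shared with the TGF-β branch, and move to the nucleus, where they bind GC-rich elements and GTCT elements in DNA. The inhibitory SMADs, SMAD6 and SMAD7, and the pseudoreceptor BAMBI are themselves induced by the pathway and dampen it. ID1, ID2 and ID3 are classical direct targets of BMP. ID proteins have a helix-loop-helix but no basic DNA-binding region, so they hold E proteins and other bHLH factors in dimers that do not bind DNA. TβRIII is a co-receptor that binds several TGF-β superfamily ligands, BMPs among them.

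TGFBR3, which encodes TβRIII, was lower on each TβRIII-KD array than on each control array. Its log2 signal was 10.81, 10.89 and 10.56 in control 1, 2 and 3, and 9.72, 10.01 and 10.16 in TβRIII-KD 1, 2 and 3. It fell by 0.79 in log2 units (SE 0.13) with a limma adjusted p of 0.0145. On leaving out an array, this adjusted p came to 0.0770 (control 1), 0.0554 (control 2) or 0.0625 (TβRIII-KD 2). Arrays of 1 group correlated across transcript clusters at 0.992 to 0.996 and arrays of different groups at 0.986 to 0.992. The mesenchymal markers VIM (12.84 to 13.12 over the 6 arrays) and FN1 (13.22 to 13.65) gave bright signals. The epithelial markers were mixed, with dim signals for CDH1 (5.17 to 5.47) and EPCAM (5.76 to 6.05) and bright ones for the keratin genes KRT8 (11.40 to 11.97), KRT18 (10.46 to 11.33) and KRT7 (9.97 to 10.54). Signals were also dim for the hormone receptor genes ESR1 (6.22 to 6.53) and PGR (4.87 to 5.38), where the median signal of the arrays was 7.67 to 7.71.

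Of the 10 members, 4 rose in TβRIII-KD cells and none fell: SMAD9, SMAD6, ID1 and ID3 passed an adjusted p of 0.05 with a log2 fold change over 0.5. Over all transcript clusters, 0.777% were higher by this rule and 1.49% were lower. ID2 and BAMBI also lay higher on each TβRIII-KD array than on each control array without passing the adjusted p, which made 6 of 10 members without overlap in that direction and none in the other, where 10% and 10.7% of all transcript clusters had no overlap. SMAD1, SMAD5, SMAD7 and ID4 did not pass. The means of 7 of the 10 members were higher in TβRIII-KD, as were 54.7% of all transcript clusters, and 7 members (the 6 above and SMAD1) had an unadjusted p under 0.05, as did 15.2% of all. The median log2 fold change of the members was 0.51, and that of all genes was 0.01. The members had been chosen with earlier results of these arrays known, so their shared direction is a description and not independent evidence. The count of 4 was 1 without control 1, without TβRIII-KD 1 or without TβRIII-KD 2, 2 without control 2, and 6 without TβRIII-KD 3.

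**Figure D1:**
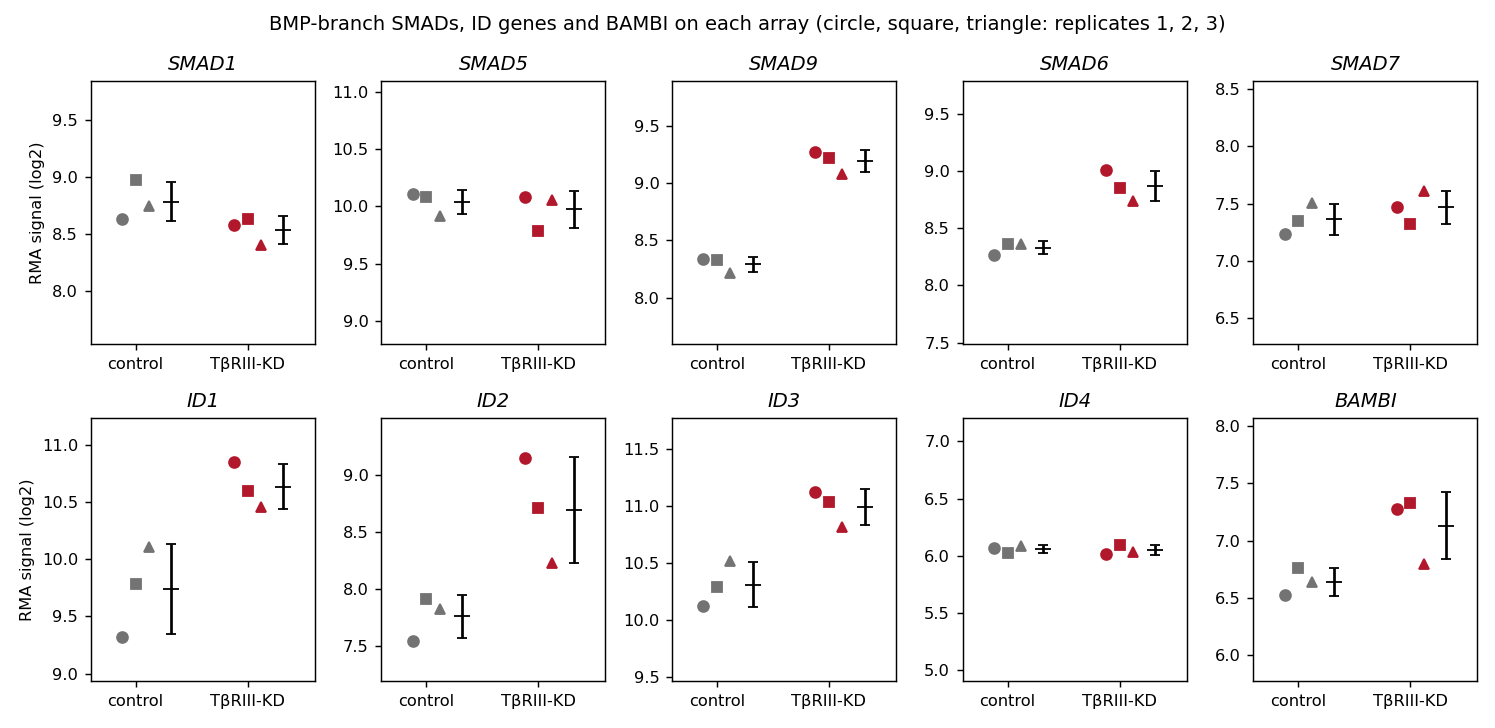
RMA signal (log2) of each of the 10 members on each array, grey for control and red for TβRIII-KD, a circle, square or triangle for replicate 1, 2 or 3, and the mean ± SD of 3 arrays in black. All panels span the same number of log2 units but start at different signals. The groups do not overlap for SMAD9, SMAD6, ID1, ID2, ID3 and BAMBI, and they meet or overlap for SMAD1, SMAD5, SMAD7 and ID4.

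The stretch of 250 bases before the RefSeq start of each member (GRCh38.p14) was searched on both strands for the letters of known SMAD elements. It is shown here for the 4 members that rose and for BAMBI, to set the start-proximal sequence beside the signals that follow. BAMBI did not pass the test, and its window is the only one shown that holds GGCGCC. The windows of the other members are not shown, among them that of ID2, which holds no GGCGCC. Capitals mark GGCGCC, the GC-rich element, and GTCT or its reverse complement AGAC. The windows are SMAD6 at chr15:66701986-66702235 on the plus strand, SMAD9 at chr13:36920239-36920488 on the minus strand, ID1 at chr20:31605039-31605288 on the plus strand, ID3 at chr1:23559502-23559751 on the minus strand and BAMBI at chr10:28677271-28677520 on the plus strand. Each is written 5′ to 3′ on the strand of its gene and ends at the base before the start.
SMAD6: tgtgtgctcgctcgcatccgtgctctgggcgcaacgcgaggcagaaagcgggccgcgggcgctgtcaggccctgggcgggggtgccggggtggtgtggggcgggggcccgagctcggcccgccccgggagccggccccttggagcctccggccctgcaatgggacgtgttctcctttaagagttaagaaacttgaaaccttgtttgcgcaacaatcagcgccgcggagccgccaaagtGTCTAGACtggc
SMAD9: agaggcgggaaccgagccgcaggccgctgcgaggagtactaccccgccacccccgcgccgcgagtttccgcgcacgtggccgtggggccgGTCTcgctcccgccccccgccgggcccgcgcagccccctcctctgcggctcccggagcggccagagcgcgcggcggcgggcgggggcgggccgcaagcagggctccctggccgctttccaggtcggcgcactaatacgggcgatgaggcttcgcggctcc
ID1: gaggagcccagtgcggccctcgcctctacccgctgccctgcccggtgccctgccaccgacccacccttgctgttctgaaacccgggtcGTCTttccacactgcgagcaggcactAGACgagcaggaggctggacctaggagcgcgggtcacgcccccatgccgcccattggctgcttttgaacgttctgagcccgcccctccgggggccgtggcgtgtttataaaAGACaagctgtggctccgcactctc
ID3: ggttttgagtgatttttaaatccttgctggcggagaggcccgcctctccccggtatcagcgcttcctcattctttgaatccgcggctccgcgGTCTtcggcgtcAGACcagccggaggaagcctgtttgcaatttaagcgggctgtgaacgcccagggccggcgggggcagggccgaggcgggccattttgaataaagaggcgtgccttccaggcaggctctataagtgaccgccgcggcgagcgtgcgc
BAMBI: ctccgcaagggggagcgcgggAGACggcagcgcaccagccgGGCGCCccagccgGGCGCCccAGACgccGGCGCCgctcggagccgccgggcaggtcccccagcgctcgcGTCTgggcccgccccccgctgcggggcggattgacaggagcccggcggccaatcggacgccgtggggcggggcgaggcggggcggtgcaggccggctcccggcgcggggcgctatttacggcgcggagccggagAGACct

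GTCT or AGAC stood in a window of each of the 10 members and in 77.5% of all 35116 windows, so its presence does not set the members apart. The palindrome GTCTAGAC, which is a pair of these elements back to back, stood in the SMAD6 window from base -12 and in 0.182% of all windows, 64 in number. None of the other members held it. GGCGCC stood in the BAMBI window at 3 places and at some starts of SMAD1, and in 16.4% of all windows. GGCGCC followed after 5 bases by GTCT, a spacing known from BMP response elements, was in 0.0769% of all windows and in no member. CANNTG, the E-box that E proteins bind, was in a window of 6 of the 10 members (SMAD1, SMAD5, SMAD7, SMAD9, ID2 and ID4) and in 61.8% of all windows. SMAD1 has 5 annotated starts and SMAD7 has 3, so the 10 members had 16 windows. The windows cover only the sequence next to the start, and elements farther away were not searched.

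The receptor-regulated SMADs of the BMP branch did not move together. SMAD9 rose, while the values for SMAD1 and SMAD5 were on the other side of 0 and did not pass the test. SMAD9 read 8.34, 8.32 and 8.22 in control 1, 2 and 3, and 9.27, 9.22 and 9.08 in TβRIII-KD 1, 2 and 3. The arrays of each group lay close together and far from those of the other, with a gap of 0.75 between the groups against ranges of 0.12 within control and 0.19 within TβRIII-KD. Its log2 fold change was 0.90 (SE 0.08, adjusted p = 0.000916 from limma), which is 1.86-fold with a 95% interval of 1.64 to 2.11. SMAD9 ranked 47 of the 141 genes that rose past the cutoff by fold change, and its adjusted p lay between 0.00102 and 0.00887 when any of the 6 arrays was left out.

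SMAD1 read 8.63, 8.97 and 8.75 in the controls and 8.58, 8.63 and 8.40 in TβRIII-KD. The lowest control and the highest TβRIII-KD array gave the same value, so the groups met without a gap. The log2 fold change was -0.25 (95% interval -0.49 to -0.01, adjusted p = 0.315). SMAD5 read 10.11, 10.08 and 9.91 in the controls and 10.08, 9.78 and 10.06 in TβRIII-KD, and the groups overlapped. Its log2 fold change was -0.06 (95% interval -0.29 to 0.17, adjusted p = 0.835). The fold changes of SMAD1 and SMAD5 differed by -0.19 (95% interval -0.71 to 0.34, exact permutation p = 0.3).

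The SMADs of the other branch and the shared SMAD were read beside them. SMAD3, a receptor-regulated SMAD of the TGF-β branch, read 10.45, 10.40 and 10.46 in the controls and 10.84, 10.87 and 10.91 in TβRIII-KD. It rose by 0.44 (SE 0.07, adjusted p = 0.0111) and missed the fold limit of 0.5. Its adjusted p was 0.0618 without control 1 and 0.0511 without control 2. SMAD2, the other receptor-regulated SMAD of that branch, gave 0.02 (95% interval -0.14 to 0.17, adjusted p = 0.942), and SMAD4 gave 0.03 (95% interval -0.19 to 0.26, adjusted p = 0.913). Of the 6 SMADs that carry signals to the nucleus, SMAD9 and SMAD3 passed the adjusted p, where 3.35% of all transcript clusters did so in either direction.

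**Figure D2:**
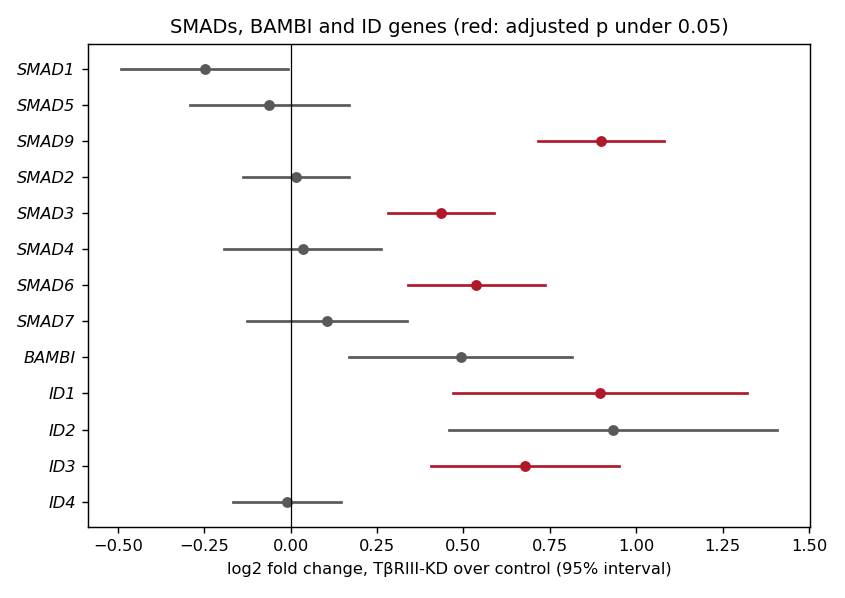
Log2 fold change (TβRIII-KD over control, 3 arrays per group) of the 10 members and of SMAD2, SMAD3 and SMAD4, with the 95% interval from limma as a line and genes with an adjusted p under 0.05 in red. SMAD9 (0.90), ID1 (0.90), ID3 (0.68), SMAD6 (0.54) and SMAD3 (0.44) are red, and ID2 has the highest value (0.93) with the widest interval.

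Among the inhibitors of the pathway, SMAD6 rose and SMAD7 did not pass. SMAD6, which blocks BMP receptors and the SMADs of this branch in particular, read 8.27, 8.36 and 8.36 in the controls and 9.01, 8.85 and 8.74 in TβRIII-KD. Each TβRIII-KD array was above each control array, by a gap of 0.38. The log2 fold change was 0.54 (SE 0.09, adjusted p = 0.0134), or 1.45-fold with a 95% interval of 1.27 to 1.66. Its adjusted p was 0.0770 without control 1 and 0.0557 without TβRIII-KD 2. SMAD7, which restrains both branches, read 7.23, 7.35 and 7.50 in the controls and 7.47, 7.32 and 7.61 in TβRIII-KD, and the groups overlapped. Its log2 fold change was 0.11 (95% interval -0.13 to 0.34, adjusted p = 0.693). The fold change of SMAD6 was above that of SMAD7 by 0.43 (95% interval 0.03 to 0.83), with an exact permutation p of 0.1, the smallest that 3 arrays against 3 allow.

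BAMBI, a transmembrane protein that resembles a type I receptor without a kinase domain, read 6.52, 6.76 and 6.63 in the controls and 7.27, 7.33 and 6.79 in TβRIII-KD. TβRIII-KD 1 and 2 stood well above the controls, while TβRIII-KD 3 cleared the highest control by 0.03 only. The log2 fold change was 0.49 (SE 0.14, 95% interval 0.17 to 0.81), and the adjusted p was 0.119. Without TβRIII-KD 3 the value was 0.66 with an adjusted p of 0.00859, so this 1 array decided the call.

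Of the ID genes, ID1 and ID3 rose, ID2 had a change of like size that just missed the adjusted p, and ID4 stayed at a dim signal with overlapping groups. ID1 read 9.32, 9.79 and 10.11 in the controls and 10.85, 10.59 and 10.46 in TβRIII-KD. The controls were spread over 0.78 log2 units, more than the gap of 0.35 to the lowest TβRIII-KD array. ID1 changed by 0.90 (SE 0.19, adjusted p = 0.0388), or 1.86-fold with a 95% interval of 1.39 to 2.50. The adjusted p was 0.0858 without control 1, 0.10 without control 2, 0.105 without TβRIII-KD 1 and 0.136 without TβRIII-KD 2.

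ID3 read 10.12, 10.29 and 10.51 in the controls and 11.12, 11.03 and 10.81 in TβRIII-KD. As for ID1, control 1 was the lowest and TβRIII-KD 1 the highest of the 6 arrays, and control 3 and TβRIII-KD 3 were nearest to the other group. The log2 fold change of ID3 was 0.68 (SE 0.12, adjusted p = 0.0194), or 1.6-fold with a 95% interval of 1.33 to 1.93. Its adjusted p was 0.0830 without control 1, 0.0665 without control 2, 0.0619 without TβRIII-KD 1 and 0.0878 without TβRIII-KD 2.

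ID2 read 7.55, 7.91 and 7.82 in the controls and 9.15, 8.71 and 8.22 in TβRIII-KD. The groups did not overlap, but the TβRIII-KD arrays were spread over 0.92 log2 units. The difference of 0.93 log2 units (SE 0.21, 95% interval 0.46 to 1.41) was the highest point value among the members, with an adjusted p of 0.0512. Without TβRIII-KD 3 it was 1.17 with an adjusted p of 0.00605. ID4, the remaining member of the family, read 6.07, 6.02 and 6.09 in the controls and 6.02, 6.10 and 6.03 in TβRIII-KD. All 6 arrays lay within a narrow and dim range, and the log2 fold change was -0.01 (95% interval -0.17 to 0.15, adjusted p = 0.963).

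The fold changes of ID1, ID2 and ID3 could not be separated at this number of arrays. ID1 differed from ID2 by -0.04 (95% interval -0.65 to 0.57, exact permutation p = 0.8) and from ID3 by 0.22 (95% interval -0.14 to 0.57, exact permutation p = 0.2), and ID2 differed from ID3 by 0.25 (95% interval -0.30 to 0.81, exact permutation p = 0.3). These intervals leave room for unequal changes. Against ID4, the fold change was larger by 0.91 for ID1 (95% interval 0.19 to 1.62), by 0.94 for ID2 (0.12 to 1.77) and by 0.69 for ID3 (0.29 to 1.08). Each of these had an exact permutation p of 0.1, the smallest possible. With the SMAD1 and SMAD5 pair and the SMAD6 and SMAD7 pair, 8 pairs were compared, and no adjusted p over them was below 0.2.

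The members without overlap shared an order of arrays. TβRIII-KD 3 had the lowest value of the TβRIII-KD arrays in 6 of these 6 genes, TβRIII-KD 1 had the highest in 5 (BAMBI was highest in TβRIII-KD 2), and control 1 was the lowest control in 5 (SMAD9 was lowest in control 3). How often all transcript clusters had this order was not counted, so it cannot be called particular to these members. TGFBR3 itself was highest among the TβRIII-KD arrays in TβRIII-KD 3 and lowest in TβRIII-KD 1. Among the controls TGFBR3 was highest in control 2 and lowest in control 3, while control 1 was the lowest for 5 of the 6 members. The part of the members' array order in their changes was not tested. Leaving out TβRIII-KD 3 made all 6 pass the adjusted p, and leaving out control 1 or TβRIII-KD 2 left SMAD9 alone. The calls over all transcript clusters moved in the same way. Past the cutoff, 172 were higher and 329 lower with all 6 arrays, and 251 and 387 without TβRIII-KD 3. Without control 1 these numbers were 88 and 216, and without TβRIII-KD 2 they were 104 and 215.

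**Figure D3:**
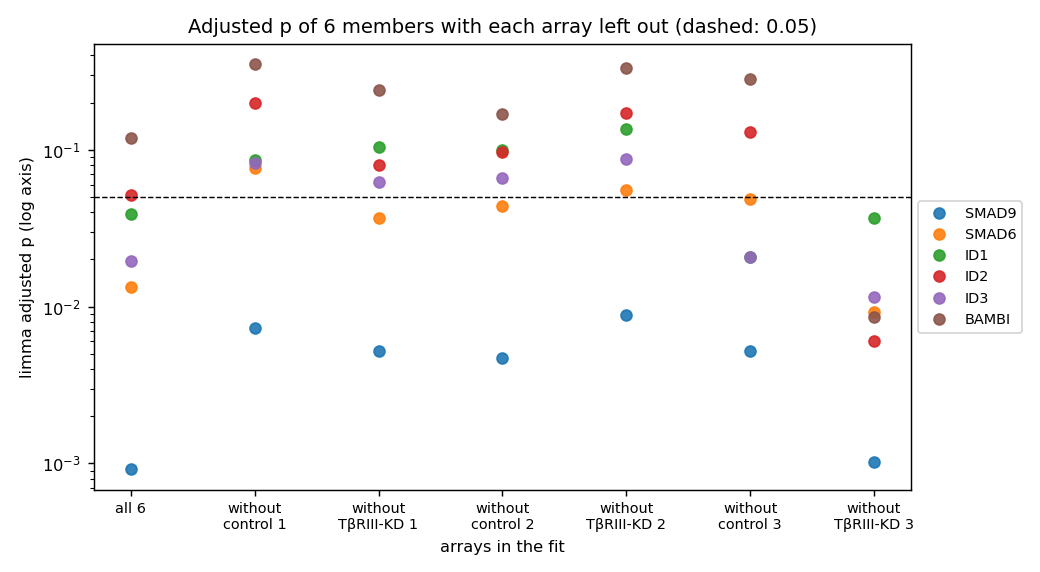
Adjusted p from limma (log axis) for the 6 members without overlap, with all 6 arrays and with each array left out in turn, and a dashed line at 0.05. SMAD9 lies below the line in every column, all 6 genes lie below it without TβRIII-KD 3, and the points of ID1 and ID3 coincide at 0.0208 without control 3.

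Beyond the members, other genes known to respond to BMP were read from a list of 20, of which 19 had a transcript cluster of their own. Of these, 3 rose and none fell by an adjusted p of 0.05, where 1.24% of all transcript clusters were higher and 2.11% lower by that rule. The 3 encode transcription factors: DLX3, which acts in bone, placenta and skin, rose by 0.77 (SE 0.15, adjusted p = 0.0335), DLX2, a related homeobox factor, by 0.53 (SE 0.07, adjusted p = 0.00730), and ATOH8, a bHLH factor, by 0.52 (SE 0.10, adjusted p = 0.0263). DLX2 read 7.42, 7.51 and 7.40 in the controls and 7.95, 8.04 and 7.93 in TβRIII-KD, which was the tightest of the 3. DLX3 read 6.29, 6.35 and 6.66 against 7.19, 7.51 and 6.92, and ATOH8 8.30, 8.52 and 8.56 against 9.10, 8.85 and 8.997. None of the 3 overlapped between the groups. The adjusted p of DLX3 was 0.143 without control 1, 0.0816 without TβRIII-KD 1, 0.112 without control 2 and 0.0951 without TβRIII-KD 2, and that of ATOH8 was 0.107 without control 1, 0.0644 without control 2, 0.0553 without control 3 and 0.0757 without TβRIII-KD 1. The count of 3 was 1 without control 1, control 2 or TβRIII-KD 1.

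Over the 19 genes the median log2 fold change was 0.06, where that of the members was 0.51. RUNX2, a bone factor that SMADs bind, lay lower on each TβRIII-KD array without passing the test (log2 fold change -0.37, adjusted p = 0.165), and CXXC5 lay higher (0.29, adjusted p = 0.308). The common BMP targets MSX1, MSX2, HEY1 and GATA2 all lay between 0.04 and 0.15. Of these, MSX2 (adjusted p = 0.360) and GATA2 (adjusted p = 0.492) lay higher on each TβRIII-KD array without passing in limma, and MSX1 and HEY1 overlapped. Without overlap, 6 of the 19 lay higher and 2 lower, where 10% and 10.7% of all transcript clusters did.

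Upstream of the SMADs, no ligand passed. None of the receptors and co-receptors listed passed either, and this list leaves out TGFBR3, the targeted gene, which fell. Of 12 BMP ligands, BMP4 alone had an unadjusted p under 0.05 in limma, with a value of -0.38 (SE 0.15, adjusted p = 0.261). Of 10 BMP receptors and co-receptors measured, 0 passed and 0 had an unadjusted p under 0.05. Their log2 fold changes lay between -0.15 for ENG (adjusted p = 0.551) and 0.11 for ACVR1 (adjusted p = 0.620). BMPR2, the main type II receptor for BMPs, read 10.24, 10.26 and 10.38 in the controls and 10.08, 10.18 and 10.39 in TβRIII-KD, with overlapping groups. BMPR1A had no transcript cluster of its own.

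Of 13 secreted BMP antagonists measured, TWSG1 fell. TWSG1 binds BMPs together with chordin and can restrain or free them. It read 8.83, 8.996 and 8.99 in the controls and 8.34, 8.19 and 8.44 in TβRIII-KD, with no overlap. It fell by 0.62 (SE 0.09, adjusted p = 0.00858), and its adjusted p stayed at 0.0419 or below when any array was left out. Of the 13, 2 lay lower without overlap (TWSG1 and NOG, which encodes noggin) and 2 higher (SOSTDC1 and BMP3), where 10.7% and 10% of all transcript clusters did. The values that did not pass were -0.28 for NOG (adjusted p = 0.337), 0.31 for SOSTDC1 (adjusted p = 0.337) and 0.09 for BMP3 (adjusted p = 0.590).

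**Figure D4:**
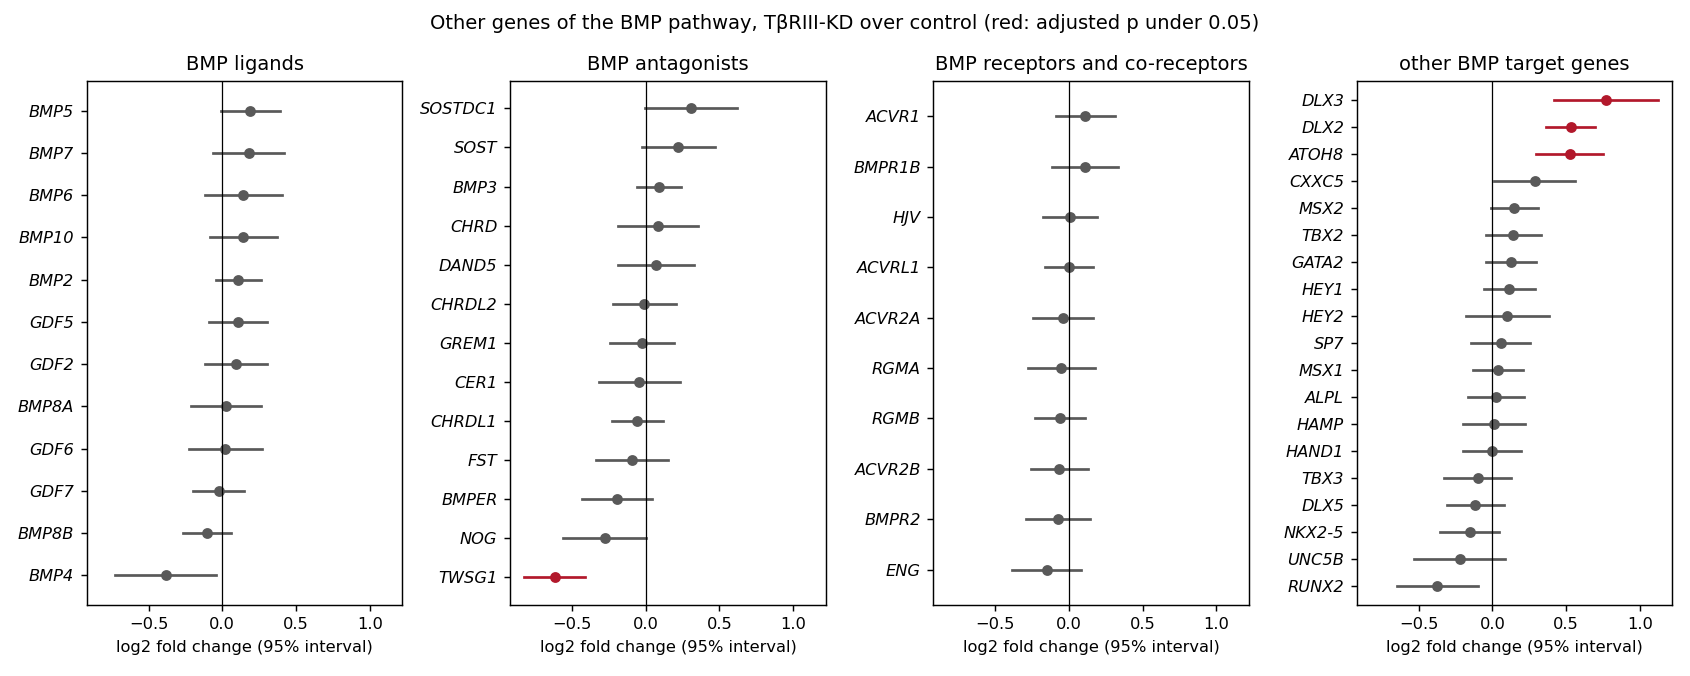
Log2 fold change (TβRIII-KD over control, 3 arrays per group) with the 95% interval from limma for the BMP ligands, antagonists, receptors and other target genes measured, with genes at an adjusted p under 0.05 in red. DLX3 (0.77), DLX2 (0.53), ATOH8 (0.52) and TWSG1 (-0.62) are red, and no ligand or receptor is.

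Genes that tune SMADs inside the cell passed the adjusted p singly. Of 25 SMAD modifiers and repressors, 1 rose: NEDD4L, a ubiquitin ligase for activated SMADs of the TGF-β branch, by 0.62 (SE 0.12, adjusted p = 0.0311). None fell, where 1.24% of all transcript clusters were higher and 2.11% lower by that rule. Without overlap, 5 of the 25 lay higher and 2 lower, where 10% and 10.7% of all transcript clusters did. In limma 4 of the 25 had an unadjusted p under 0.05, as did 15.2% of all. CTDSPL, of a phosphatase family that acts on SMADs, had the value -0.41 (adjusted p = 0.106). Of 11 nuclear partners of SMADs, ZEB2, a zinc finger repressor that binds activated SMADs, rose by 0.44 (SE 0.08, adjusted p = 0.0220). RUNX1 had a value of -0.28 (adjusted p = 0.0734). The adjusted p of NEDD4L lay between 0.0179 and 0.134 when any array was left out, and it missed 0.05 without control 1, control 2, control 3 or TβRIII-KD 2. That of ZEB2 lay between 0.0415 and 0.113 and missed 0.05 without control 1, control 2, control 3 or TβRIII-KD 1.

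**Figure D5:**
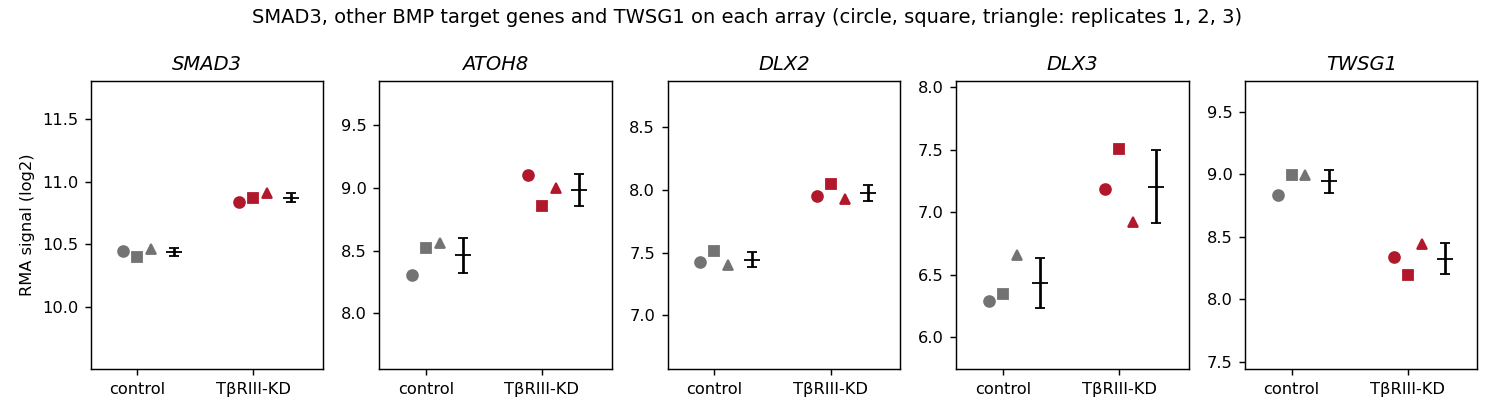
RMA signal (log2) of SMAD3, ATOH8, DLX2, DLX3 and TWSG1 on each array, drawn as for the 10 members, with the mean ± SD of 3 arrays per group in black. The groups do not overlap for any of the 5 genes, TWSG1 is lower in TβRIII-KD and the rest are higher.

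In the lists of partners and downstream genes of the ID proteins, no gene passed. The bHLH list leaves out ATOH8, a bHLH factor that rose and was read with the BMP targets. Of 14 E proteins and other bHLH factors measured, none had an adjusted p under 0.05. In limma 3 of the 14 had an unadjusted p under 0.05, where 15.2% of all transcript clusters did. Without overlap, 5 of the 14 lay higher and 0 lower, where 10% and 10.7% of all transcript clusters did. TCF3, TCF4 and TCF12, which encode the E proteins that IDs bind, had log2 fold changes of 0.11, -0.01 and -0.06. HES1, a bHLH repressor, had the smallest p of the list, with a log2 fold change of 0.24 and an adjusted p of 0.214. Of 4 cell cycle inhibitors that E proteins can activate, CDKN1A, which encodes p21, lay higher on each TβRIII-KD array (8.51, 8.66 and 8.56 against 8.81, 9.04 and 9.003). Its log2 fold change was 0.38 with an adjusted p of 0.0569, which was 0.0426 without TβRIII-KD 1.

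Values of genes driven by the TGF-β branch or by other signals were set beside the members. Of 17 TGF-β target genes measured, none rose and NEDD9, a focal adhesion scaffold, fell by 0.78 (SE 0.09, adjusted p = 0.00331). THBS1, which encodes thrombospondin-1, had a value of -0.51 (adjusted p = 0.0555). Without TβRIII-KD 1 its adjusted p was 0.0137, and 2 of the 17 were then lower. The median of the list was -0.09. ID genes also respond to serum and growth factors, as immediate early genes do. Of 16 such genes, FOSL1 rose by 0.39 (SE 0.07, adjusted p = 0.0300) and JUN fell by 0.47 (SE 0.09, adjusted p = 0.0320), and both missed 0.05 on leaving out any array but TβRIII-KD 3. The median of that list was -0.10. The part of either pathway in the members' changes was not tested.

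Marker lists of cell types moved in places with the groups. Of 9 mesenchymal markers SPARC fell by 0.45 (SE 0.08, adjusted p = 0.0189), and it missed 0.05 without control 1, control 3, TβRIII-KD 1 or TβRIII-KD 2. In the same list SNAI2 (0.27, adjusted p = 0.0981), TWIST1 (0.20, adjusted p = 0.282) and AXL (0.18, adjusted p = 0.243) lay higher on each TβRIII-KD array without passing, and the summed signal was 15.18 to 15.29 in the controls and 15.06 to 15.26 in TβRIII-KD. Of 7 endothelial markers, KDR fell by 1.73 (SE 0.20, adjusted p = 0.00338) and ERG fell by 0.47 (SE 0.09, adjusted p = 0.0234), and ERG missed 0.05 on leaving out any array but TβRIII-KD 3. The summed signal of the endothelial list, on the log2 scale, was 10.47 to 10.79 in the controls and 9.76 to 10.05 in TβRIII-KD, while the list's median log2 fold change was 0.05. The 5 other markers, CDH5 (-0.16), VWF (0.08), TEK (0.06), ROBO4 (0.12) and CLDN5 (0.05), overlapped between the groups, and CDH5, a defining endothelial gene, read 6.49 to 6.77 in the controls and 6.31 to 6.58 in TβRIII-KD. None of 8 epithelial, 3 hormone receptor and HER2, 6 leukocyte and 7 fibroblast and adipocyte markers measured passed in limma, where 3, 0, 0 and 4 of them had an unadjusted p under 0.05. The genes with the smallest p in these lists were KRT8 (-0.36, adjusted p = 0.0871), ERBB2 (0.08, 0.722), ITGAM (0.13, 0.425) and FAP (-0.68, 0.0534). KRT8 and FAP lay lower and ITGAM higher on each TβRIII-KD array, and ERBB2 overlapped. In the list of FAP, FABP4 lay higher on each TβRIII-KD array (0.53, adjusted p = 0.107). The summed log2 signal was 12.80 to 13.05 against 12.42 to 12.71 for the epithelial list and 11.97 to 12.08 against 11.42 to 11.80 for the fibroblast and adipocyte list. The part of these differences in the members' changes was not tested.

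On the chromosomes, the neighbours of the members passed at about the rate of all transcript clusters. For each member the 5 measured genes on either side were read in RefSeq order (GRCh38.p14). The medians of these 10 neighbours lay between -0.13 for BAMBI and 0.15 for ID4. Of the 100 neighbours of the members, 3 had an adjusted p under 0.05, where 3.35% of all transcript clusters did. None of the neighbours of SMAD9, ID1, ID2 or ID3 had an adjusted p under 0.05. The next measured gene after SMAD6 on chromosome 15 is SMAD3, and both rose, while their other neighbours within that reach did not pass. Of the neighbours of BAMBI, JCAD (-0.35, adjusted p = 0.0316) and MAP3K8 (-0.45, adjusted p = 0.0429) fell.

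The genes whose signals followed the members most closely over the 6 arrays, as a description of arrays that fall into the 2 groups compared, were these. For SMAD9 they were PARM1, LINC00896 and SLC7A11 (each Pearson's r = 0.998), for ID1 TUBA1A (0.995), LIPH (0.990) and CDC14A (0.989), and for ID3 SLC66A3 (0.995), RNF157 (0.993) and CLCN5 (0.991). PARM1, which encodes a mucin-like membrane protein, rose by 2.63 on the log2 scale (adjusted p = 0.000107), and SLC7A11, which encodes the cystine transporter, by 1.08 (adjusted p = 0.000908). The others did not pass the adjusted p, and LINC00896 had a log2 fold change of 0.08.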

How the data were processed

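Affymetrix Human Gene arrays were hybridized with RNA of 3 control and 3 TβRIII-KD samples of SUM159 cells. The authors deposited log2 signals made with RMA (background correction, quantile normalization and median-polish summary) in oligo under R 3.0.1. For oligo and for the limma used then no version was found in the sources used here, and the same holds for the genome build of the probe annotation and any filter. RMA compresses changes of dim transcripts, so their fold changes are understated. Signal over background was not analysed here, and precision is limited by the number of arrays.

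Samples were grouped by their labels. Of 22148 transcript clusters, 19129 are annotated with 1 gene symbol, 1735 with more than 1 and 1284 with none. All were fitted with the linear models of limma 3.58.1 (R 4.3.3; empirical Bayes without trend, two-sided), and p-values were adjusted by the Benjamini-Hochberg method over all of them. The cutoff was an adjusted p under 0.05 with an absolute log2 fold change over 0.5, as in the authors' analysis. Genes without a fold limit were called by the adjusted p alone. SE is the moderated standard error. Differences between members were tested by exact permutation of the 6 arrays, two-sided. The procedure was tested on simulated data.

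The members, 11 further gene lists (other SMADs, BMP ligands, antagonists, receptors and other targets, SMAD modifiers, nuclear partners, E proteins, cell cycle inhibitors, TGF-β targets and immediate early genes) and 6 marker lists were chosen with earlier results of these data known. The genes named are the members, TGFBR3, the SMADs, up to 4 genes per list with an adjusted p under 0.05 or else the one with the smallest p, and the 3 genes most like each of 3 members. Others were named after their values were seen. Promoter windows of 250 bases and gene order are from RefSeq (GRCh38.p14). The authors' xenograft, migration, qRT-PCR and BMP4 treatment experiments were not analysed here. After adding BMP4, the paper reports no significant difference between TβRIII-KD and control cells in phosphorylation of the BMP-branch SMADs, with the data not shown. That is a protein measure after an added ligand, while the values here are RNA with no added treatment named.

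The alternatives were array weights, robust moderation, moderation with a trend, the methods' t-test (unpaired, two-tailed), 2 filters on transcript clusters, arrays centred on their medians, each array left out, repeated quantile normalization, other fold limits and a replicate block. Control and TβRIII-KD arrays of the same number were not treated as pairs.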

Additional observations from a re-analysis of the deposited data

How the results depend on the processing

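The direction of SMAD9, SMAD6, ID1, ID2, ID3 and BAMBI was the same under every alternative run. The calls rest on few arrays, and SMAD9 alone passed under each alternative except the methods' t-test after adjustment and a fold limit of 1. The methods' t-test after adjustment called 0 of the 10 members past the cutoff and 0 by the adjusted p, and 5 by its unadjusted p without a fold limit, while 0 of the other BMP targets passed after adjustment. Its adjusted p was 0.0612 for SMAD9 (0.90), 0.138 for SMAD6 (0.54), 0.290 for ID1 (0.90) and 0.207 for ID3 (0.68). A fold limit of 1 on the log2 scale left 0 members. ID2 passed with a trend (0.93, adjusted p = 0.0403), array weights (1.05, 0.0221), transcript clusters at or above the median signal (0.93, 0.0405), transcript clusters with 1 symbol (0.93, 0.0480), arrays centred on their medians (0.93, 0.0460) and repeated quantile normalization (0.94, 0.0421).

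With each array left out, the members past the cutoff numbered 1 to 6, those by the adjusted p alone 1 to 6, and the other BMP targets that rose 1 to 3. The log2 fold changes lay between 0.47 and 0.60 for SMAD6, 0.69 and 1.08 for ID1, 0.70 and 1.17 for ID2, 0.58 and 0.78 for ID3 and 0.39 and 0.66 for BAMBI. SMAD5 turned to 0.034 without TβRIII-KD 2 (range -0.12 to 0.034), ID4 to 0.0055 without TβRIII-KD 1 and 0.0044 without control 3 (range -0.034 to 0.0055), and SMAD4 to -0.014 without control 3 and -0.048 without TβRIII-KD 3 (range -0.048 to 0.12), none of them called. Over all transcript clusters these fits called 88 to 251 higher and 215 to 387 lower.

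With the replicate number as a block, 5 members passed the cutoff, with ID2 added (0.93, adjusted p = 0.0349), and no other member's call changed. In the other lists it added BMP4 (-0.38, adjusted p = 0.0483), CTDSPL (adjusted p = 0.0377), CDKN1A (adjusted p = 0.0410) and THBS1 (adjusted p = 0.0397). THBS1 also passed with a trend (0.0379) and among transcript clusters at or above the median signal (0.0394). The numbers were not taken to pair the arrays, since deviations of same-numbered arrays from their group means correlated at -0.06, 0.11 and 0.307 and only number 3 correlated best with its own. The mean over a gene's transcript clusters was not run, since each member has 1. Signal over background was not analysed here.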
